A study of Mus musculus with 10 samples.

Results

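The genes described here are 42 genes of mitosis, the step of the cell cycle in which the duplicated chromosomes are condensed, captured by the spindle and divided between the daughter cells. They were taken by name from a count table of 46959 mouse genes, and every one of the 42 names had an entry. RNA was sequenced from 10 libraries in a study of histone deacetylase (HDAC) inhibitors and of transcription at the immunoglobulin heavy chain locus. The CD43- fraction of splenocytes, rich in resting B cells, were cultured for 2 days with 5 µg/ml lipopolysaccharide (LPS), which drives B cells to proliferate and to begin antibody secretion. Of these cultures, 2 came from wild-type (WT) mice and also received 200 ng/ml SAHA at the start of the culture, 2 came from KOKI mice, and 2 came from WT mice with LPS alone. SAHA, or vorinostat, is an inhibitor of HDACs, the enzymes that take acetyl groups off histones and other proteins. The femoral libraries were made directly from RNA of pools of 3 mice each. They were 1 pool of KOKI mice deficient for RAG2 and gamma c, 1 pool of KOKI mice deficient for RAG2 alone, and 2 control pools of RAG2- and gamma c-deficient mice without KOKI. RAG2 is needed to rearrange antigen receptor genes, and gamma c is a receptor chain shared by several interleukins. All 4 femoral pools lack RAG2, and all but the last KOKI pool lack gamma c. The labels call the WT mice BLACK-6 controls, do not spell out KOKI and give no ages.

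Entry into mitosis is driven by the kinase CDK1 bound to cyclin A or cyclin B, which the CDC25 phosphatases switch on, and by the Polo and Aurora kinases. The spindle assembly checkpoint holds CDC20 inactive until every kinetochore is attached to microtubules. CDC20 then directs the anaphase-promoting complex (APC/C), a ubiquitin ligase, against cyclin B and securin, and the cell divides. Transcripts of these genes rise together in G2 and mitosis, through the MuvB and FOXM1 proteins that bind their promoters, and are low in resting lymphocytes. The level of these genes in a culture therefore depends both on how many cells are in these phases and on the RNA in each, and in bulk RNA fewer cells and less RNA per cell cannot be told apart.

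Total counts ran from 18614742 to 29314068 per library, and all 42 genes passed the filter on low counts in each comparison. Several libraries stood apart or had labels in question. The library KOKI LPS 2 held 8499 counts of Xist and 20 of Ddx3y, while the other 5 splenic libraries held at most 9 counts of Xist and at least 3183 of Ddx3y. By these genes, which differ between the sexes, KOKI LPS 2 is female and the other 5 are male. The KOKI cultures thus came from separate animals and were of mixed sex, unlike the WT cultures. The library WT LPS+SAHA 2 had counts in 31524 genes, against 17957 to 22335 in the other 9. The femoral libraries are labelled B cells. The mature B cell gene Ms4a1 was at most 0.0946 CPM there, against at least 858 CPM in the splenic libraries, where CPM are counts scaled to the size of the library. In pools that lack RAG2 this low value alone does not go against the label. The 9 early B cell markers summed to between 230 and 301 CPM in the femoral libraries and to between 146 and 234 CPM in the splenic ones. Between 1 and 2 of them were at 0 in the femoral libraries and between 2 and 5 in the splenic ones. Single markers went both ways: in femoral control against WT LPS, 3 of the 8 tested were higher and 2 lower. Their log2 fold changes ran from −6.99 to 12.9, so this sum does not stand for each marker. Neutrophil markers summed to between 13856 and 21177 CPM in the femoral libraries, with none of the 12 at 0, and 12 erythroid markers to between 10298 and 13444 CPM. They are called femoral preparations below. The treatment label of the KOKI cultures names LPS and SAHA, whereas their titles and the series' design text name LPS alone, so these cultures were set against both WT groups. The labels do not state that the splenic replicates come from separate animals. The p-values reflect the spread among these libraries alone, which may be technical in the WT groups.

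In the WT cultures with LPS alone the 42 genes covered a wide range of levels per length, given as RPKM, the CPM divided by the exon length in kilobases. The highest was Top2a, DNA topoisomerase II alpha, which untangles sister chromatids (chromosome 11, 98992943 to 99024189, minus strand in mm10), at 87.7 and 86.6 RPKM in the 2 libraries. The condensin subunit Smc4 had 90.4 and 72.2 RPKM, and the proliferation marker Mki67, which coats mitotic chromosomes, had 64.0 and 64.3 RPKM. The lowest was Foxm1, the transcription factor of the G2 programme, at 3.34 and 4.42 RPKM. The mean of Smc4 lay below that of Top2a, but the 2 genes overlapped in their single libraries, and their order is within the spread. The 42 genes together took 0.244% and 0.325% of all counts in the WT LPS+SAHA libraries, 0.698% and 0.702% in the KOKI LPS libraries and 0.533% and 0.513% in the WT LPS libraries. In the femoral preparations they took 0.674% and 0.574% in the KOKI pools, against 1.21% and 0.892% in the control pools. Mki67 alone held a large part of these femoral shares. With it the genes summed to 6735 and 5741 CPM in the KOKI pools, against 12093 and 8916 CPM in the control pools. Without it they summed to 5288 and 4642 CPM, against 8086 and 6513 CPM.

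Promoter sequence offers a feature that the choice of genes did not use. The RefSeq promoter table (GRCm38.p6, the build of mm10) gives windows of 300 bases, from 250 before to 50 after a start site, for 35 of the 42 genes, in 37 windows. Genes expressed in G2 and mitosis often carry a cell cycle genes homology region (CHR), which MuvB complexes bind, with CCAAT boxes upstream that NF-Y binds. The CHR was searched as TTTGAA or TTCGAA and the CCAAT box as CCAAT, on both strands, so that TTCAAA and ATTGG also count; TTCGAA is its own reverse complement. A CHR lay within 50 bases of the start site in 27 of the 37 windows (73.0%), against 1743 of 32851 windows over all genes (5.31%). It lay there in 35 of 130 windows of other mitosis genes (26.9%) and in 2 of 30 windows of DNA replication genes (6.67%). A CCAAT box was present anywhere in 73.0% of the members' windows, against 37.4% of all windows, and in 56.7% of those of replication genes. Both together, with the CCAAT box 20 to 80 bases before a CHR near the start, were found in 18 of the 37 windows (48.6%), against 0.798% of all. A match describes letters only and is not a shown binding site. The 5 windows printed here are those of the genes to which the results below return. Ccnb1 and Ccnb2 (chr13:100786437-100786736 and chr9:70421505-70421804, both on the minus strand) are a related pair of which only Ccnb2 holds a match to the CHR letters searched. Other letters, such as the TTTAAA in the Ccnb1 window, were not searched. Cdc20 (chr4:118437294-118437593, minus strand) had the largest difference under SAHA, and Cdc25b (chr2:131186698-131186997, plus strand) the smallest. In Mki67 (chr7:135716330-135716629, minus strand) the CHR matches lie farther upstream. The windows run 5′ to 3′ along the gene's strand, and capitals mark the CHR and CCAAT matches on either strand.
Ccnb1: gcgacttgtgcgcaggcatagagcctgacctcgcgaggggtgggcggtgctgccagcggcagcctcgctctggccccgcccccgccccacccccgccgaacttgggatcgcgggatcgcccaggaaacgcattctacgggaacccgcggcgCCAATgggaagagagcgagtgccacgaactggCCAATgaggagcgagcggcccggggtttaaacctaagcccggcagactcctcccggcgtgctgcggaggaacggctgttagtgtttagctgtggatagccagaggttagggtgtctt
Ccnb2: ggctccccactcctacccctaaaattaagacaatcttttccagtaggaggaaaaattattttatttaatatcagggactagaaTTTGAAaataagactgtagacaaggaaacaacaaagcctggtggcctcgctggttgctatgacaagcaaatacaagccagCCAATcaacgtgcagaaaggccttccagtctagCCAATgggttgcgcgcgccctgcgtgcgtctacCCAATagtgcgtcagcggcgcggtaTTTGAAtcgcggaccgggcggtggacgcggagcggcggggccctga
Cdc20: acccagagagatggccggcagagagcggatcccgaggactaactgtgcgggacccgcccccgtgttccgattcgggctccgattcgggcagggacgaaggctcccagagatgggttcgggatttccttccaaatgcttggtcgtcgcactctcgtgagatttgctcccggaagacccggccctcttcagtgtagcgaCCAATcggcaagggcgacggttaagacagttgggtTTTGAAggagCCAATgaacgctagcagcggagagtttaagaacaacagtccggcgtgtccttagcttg
Cdc25b: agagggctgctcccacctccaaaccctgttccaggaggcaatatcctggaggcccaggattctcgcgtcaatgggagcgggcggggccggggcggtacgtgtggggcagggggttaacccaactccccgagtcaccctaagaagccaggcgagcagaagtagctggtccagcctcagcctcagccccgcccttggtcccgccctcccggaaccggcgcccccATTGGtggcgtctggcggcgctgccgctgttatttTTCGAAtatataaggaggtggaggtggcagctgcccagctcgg
Mki67: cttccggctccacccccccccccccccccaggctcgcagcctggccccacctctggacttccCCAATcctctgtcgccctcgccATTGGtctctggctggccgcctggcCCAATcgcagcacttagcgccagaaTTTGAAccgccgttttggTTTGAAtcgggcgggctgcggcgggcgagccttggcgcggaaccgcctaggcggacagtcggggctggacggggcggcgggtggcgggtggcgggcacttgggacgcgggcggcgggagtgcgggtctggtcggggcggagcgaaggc

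**Figure D1:**
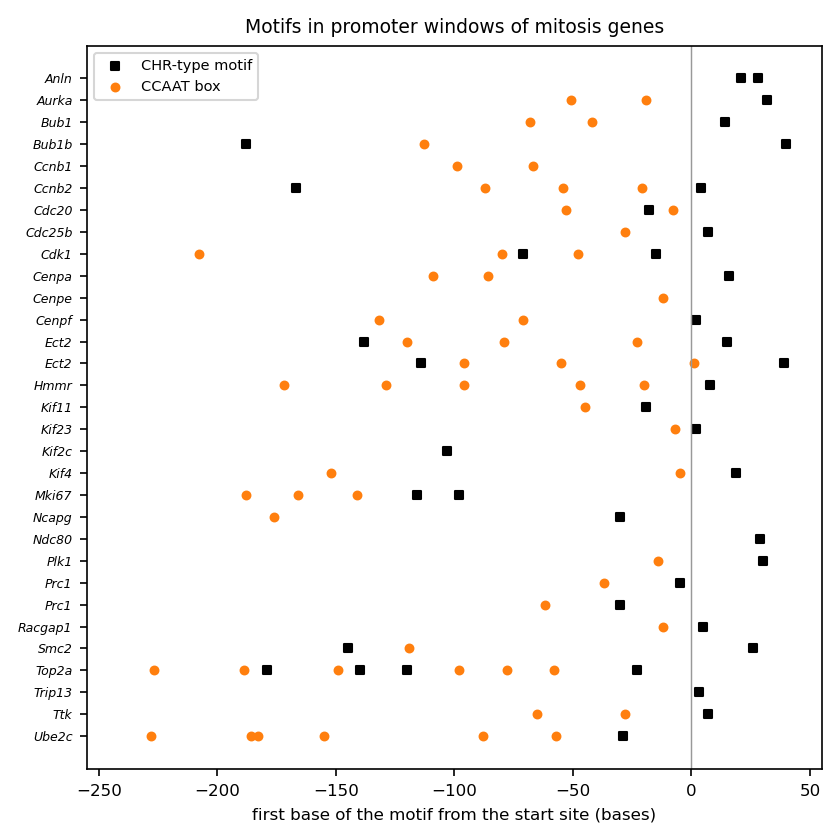
Position of CHR-type motifs (black squares) and CCAAT boxes (orange circles) in the promoter windows of the mitosis genes, 1 line per window that holds either motif, by distance of the motif's first base from the start site (horizontal axis, in bases). CHRs gather within 50 bases of the start, in 27 of the 37 windows, and most CCAAT boxes lie upstream of it.

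The first comparison asks how SAHA changed these genes in LPS-stimulated WT cells. With SAHA, 38 of the 42 were lower and none was higher, at a Benjamini-Hochberg adjusted p under 0.05 over all genes (edgeR), whereas 3.69% of the 15342 genes tested were lower and 0.952% higher (4.64% in either direction). All 42 log2 fold changes were below 0. Their median was −1.01, against 0.02 over all genes tested, and they ran from −1.36 for Cdc20 to −0.15 for Cdc25b. In 24 genes the level was less than 50% of that in WT LPS, and in 41 of 42 both WT LPS+SAHA libraries lay below both WT LPS libraries. Over all genes tested, 28.4% lay below in this way and 27.5% above. The adjusted p-values of the called genes lay close together, between 0.0185 and 0.0404 (edgeR). The calls depended on which libraries entered: in the same model fitted to the 4 WT libraries alone, and in fits without WT LPS 1, WT LPS+SAHA 1 or WT LPS+SAHA 2, no gene of the whole table was called. Without WT LPS 2, 32 of the 42 were lower, where 1.72% of all genes were called. In each of the 4 fits with no call, 41 of the 42 still had an unadjusted p under 0.05, beside between 2650 and 3765 genes of the whole table, and the members' median stayed between −1.09 and −0.94.

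**Figure D2:**
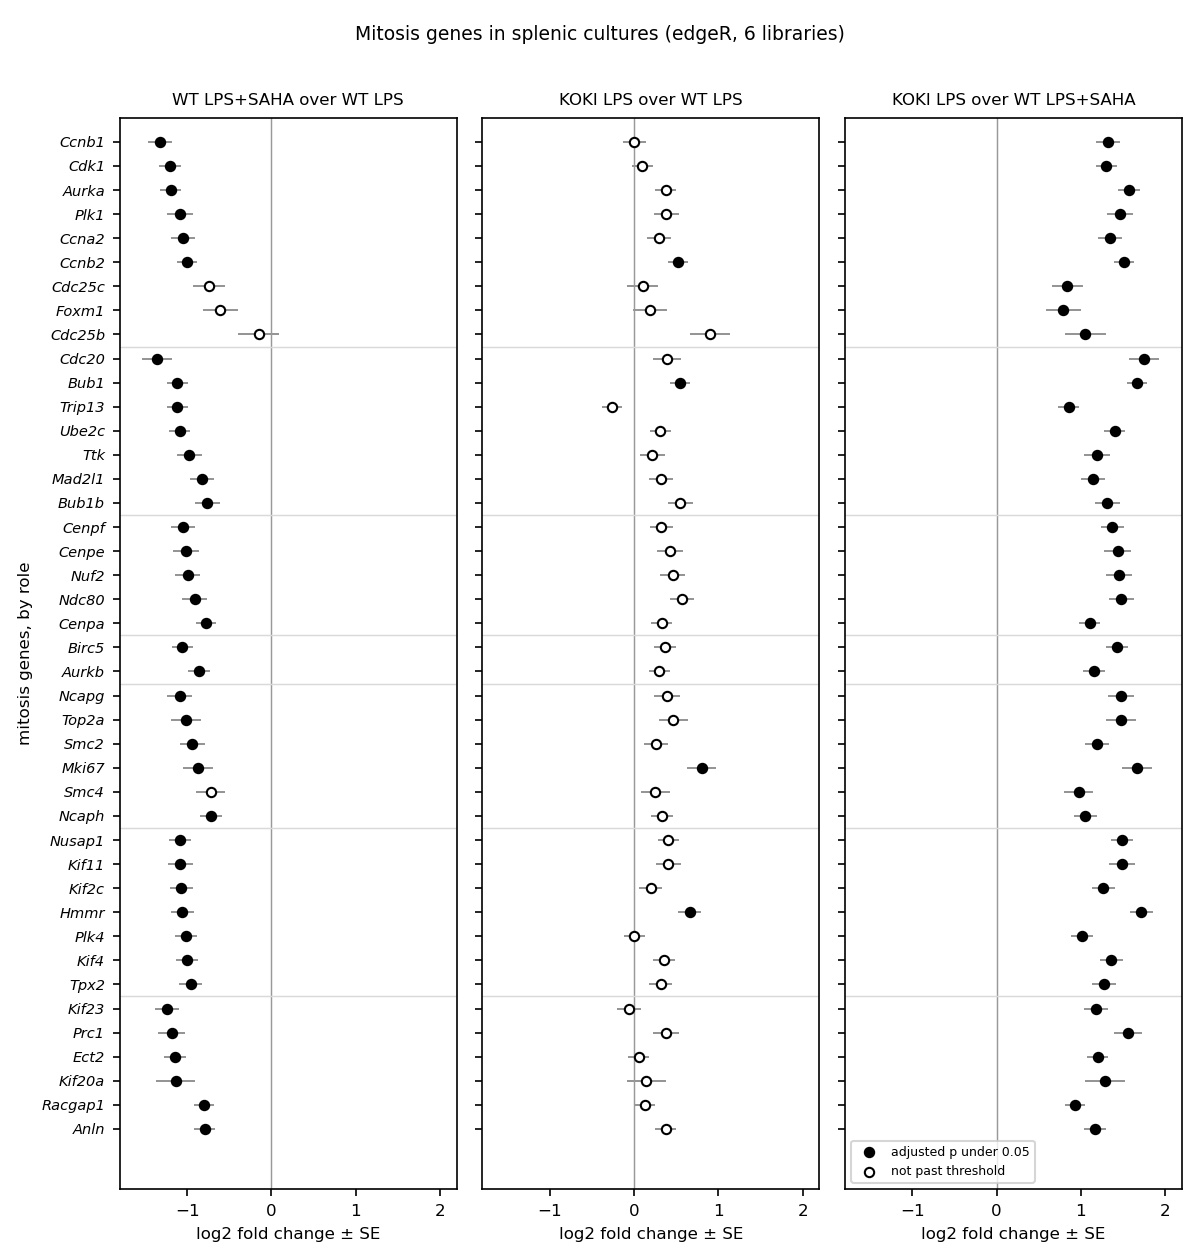
Log2 fold change of each of the 42 genes with its standard error (bar), ordered by role, in 3 panels: WT LPS+SAHA over WT LPS, KOKI LPS over WT LPS and KOKI LPS over WT LPS+SAHA; filled points passed the adjusted p threshold of 0.05 (edgeR, 2 libraries a group, shared between panels). All 42 points lie below 0 in the first panel with 38 filled, 40 lie above 0 in the second with 4 filled, and all 42 are filled and above 0 in the third.

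Among the 9 regulators of entry into mitosis, 6 were lower with SAHA (median log2 fold change −1.05). Ccnb1 encodes cyclin B1, which activates CDK1 at entry (chromosome 13, 100778650 to 100786570, minus strand), and had 93.2 and 87.7 CPM in the WT LPS+SAHA libraries, against 233 and 219 CPM in the WT LPS libraries. CPM here are scaled by TMM library sizes. Both SAHA libraries were below 50% of either WT LPS library (log2 fold change −1.32, SE 0.14, edgeR adjusted p = 0.0185). Cdk1, the kinase itself, had 70.5 and 68.3 CPM with SAHA, against 163 and 156 CPM in WT LPS, a difference of −1.20 on the log2 scale. Ccnb2, the gene of cyclin B2, had 28.0 and 28.7 CPM, against 55.2 and 58.0 CPM in WT LPS (log2 fold change −0.996, SE 0.12, edgeR adjusted p = 0.0187). Cyclin A2, Plk1 and Aurka, a partner of CDK1 and the kinases that mature the centrosome, were lower as well. Aurka had 18.2 and 17.3 CPM with SAHA, against 41.9 and 39.5 CPM in WT LPS (log2 fold change −1.20, SE 0.13, edgeR adjusted p = 0.0185).

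The other 3 entry regulators did not pass the threshold. Cdc25b, a phosphatase that activates CDK1 at the centrosome (chromosome 2, 131186949 to 131198497, plus strand), had 19.8 and 21.0 CPM with SAHA, against 18.1 and 27.1 CPM in WT LPS. The SAHA values lay between those of the 2 WT LPS libraries, the only overlap among the 42 genes (log2 fold change −0.15, SE 0.24, edgeR adjusted p = 0.749). Cdc25c, the related phosphatase, had 11.8 and 9.84 CPM, against 19.9 and 16.2 CPM in WT LPS (log2 fold change −0.74, SE 0.19, edgeR adjusted p = 0.0613). Foxm1 had 14.6 and 14.8 CPM, against 19.2 and 25.4 CPM (log2 fold change −0.61, SE 0.21, edgeR adjusted p = 0.12). For Cdc25c and Foxm1 both SAHA libraries lay below both WT LPS libraries. The ratio of Cdc25b to Cdc25c, in RPKM, was 0.870 and 1.11 with SAHA, against 0.474 and 0.870 in WT LPS, so the groups met at the same value and the ratio was not separated.

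All 7 genes of the spindle assembly checkpoint and of the switch to anaphase were lower with SAHA (median −1.09). Cdc20, the activator of the APC/C (chromosome 4, 118432901 to 118437352, minus strand), had 29.4 and 35.4 CPM with SAHA, against 71.0 and 95.2 CPM in WT LPS. The SAHA libraries were the 2 lowest of the 6 splenic libraries by a wide margin (log2 fold change −1.36, SE 0.17, edgeR adjusted p = 0.02). Bub1, a checkpoint kinase of the kinetochore, had 41.9 and 39.7 CPM, against 91.3 and 85.4 CPM in WT LPS (log2 fold change −1.12, SE 0.12, edgeR adjusted p = 0.0185). Its relative Bub1b, the gene of BUBR1, which binds CDC20 in the checkpoint complex, had 59.1 and 70.6 CPM, against 105 and 115 CPM (log2 fold change −0.76, SE 0.15, edgeR adjusted p = 0.0369). The ratio of Bub1 to Bub1b, in RPKM, was 0.695 and 0.551 with SAHA, against 0.853 and 0.728 in WT LPS; this ratio lay lower in both SAHA libraries, by a margin that was not tested. The remaining 4, Ttk, Mad2l1, Trip13 and Ube2c, had log2 fold changes between −1.12 for Trip13, an ATPase that remodels MAD2, and −0.82 for Mad2l1, the gene of MAD2.

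All 5 kinetochore and centromere genes were lower with SAHA (median −0.99), as were both genes of the chromosomal passenger complex, which corrects faulty attachments. Cenpf, a large protein of the outer kinetochore, had 41.3 and 45.9 CPM with SAHA, against 98.5 and 82.3 CPM in WT LPS (log2 fold change −1.05, SE 0.14, edgeR adjusted p = 0.0226). Cenpe, the kinesin that brings chromosomes to the spindle equator, had 52.8 and 61.6 CPM, against 128 and 103 CPM (log2 fold change −1.01, SE 0.15, edgeR adjusted p = 0.0238). In both genes the WT LPS libraries differed from each other by less than they differed from the SAHA libraries. The other 3 genes, Nuf2 and Ndc80 of the complex that grips microtubules and Cenpa, the centromeric histone, had −0.99, −0.91 and −0.78. Of the passenger complex, Birc5, the gene of survivin, had 45.7 and 40.6 CPM with SAHA, against 93.7 and 85.8 CPM in WT LPS (log2 fold change −1.06, SE 0.13, edgeR adjusted p = 0.0193). Aurkb, its kinase, had 35.7 and 38.2 CPM, against 65.9 and 68.0 CPM (log2 fold change −0.86, SE 0.13, edgeR adjusted p = 0.0238). The ratio of Aurka to Aurkb, in RPKM, was 0.594 and 0.527 with SAHA, against 0.740 and 0.676 in WT LPS, lower in both SAHA libraries, again without a test.

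Of the 6 genes of chromosome structure, 5 were lower with SAHA (median −0.90). Top2a had 366 and 413 CPM with SAHA, against 790.1 and 781 CPM in WT LPS (log2 fold change −1.01, SE 0.17, edgeR adjusted p = 0.0282). Ncapg, a regulatory subunit of condensin I, had 59.8 and 69.5 CPM, against 152 and 124 CPM (log2 fold change −1.09, SE 0.15, edgeR adjusted p = 0.0234). Smc2 and Smc4 form the core of condensin, which compacts the chromosomes. Smc2 passed the threshold with 119 and 129.7 CPM in WT LPS+SAHA, against 248 and 228 CPM in WT LPS (log2 fold change −0.94, SE 0.14, edgeR adjusted p = 0.0238). Smc4 missed it with 260.2 and 254 CPM, against 471 and 376 CPM (log2 fold change −0.72, SE 0.17, edgeR adjusted p = 0.0546). Mki67 had 326 and 382 CPM with SAHA, against 644 and 648 CPM in WT LPS (log2 fold change −0.87, SE 0.18, edgeR adjusted p = 0.0389), and Ncaph, another condensin I subunit, had a log2 fold change of −0.72. The Smc4 groups did not overlap, and its WT LPS libraries lay farther apart than those of Smc2.

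All 7 spindle and centriole genes were lower with SAHA (median −1.06), and so were all 6 genes of the central spindle and of cytokinesis, which had the lowest median of the role groups with more than 2 genes (−1.14). Kif11, the motor that pushes the spindle poles apart, had 90.0 and 107 CPM with SAHA, against 211 and 206 CPM in WT LPS (log2 fold change −1.08, SE 0.15, edgeR adjusted p = 0.0234). Nusap1, which binds spindle microtubules, had 45.9 and 50.7 CPM, against 107 and 98.0 CPM (log2 fold change −1.08, SE 0.13, edgeR adjusted p = 0.0186). Both were at about 50% of the WT LPS level in each SAHA library. The other 5 were Kif2c, a microtubule depolymerase, Hmmr, Plk4, which starts centriole duplication, Kif4, a motor on chromosome arms, and Tpx2, the activator of Aurora A, with log2 fold changes between −1.07 and −0.96. Kif23, a motor subunit of centralspindlin, had 28.5 and 35.7 CPM with SAHA, against 76.2 and 75.0 CPM in WT LPS (log2 fold change −1.23, SE 0.14, edgeR adjusted p = 0.0185). Prc1, which bundles the microtubules of the midzone, had 42.1 and 55.8 CPM, against 116 and 106 CPM (log2 fold change −1.18, SE 0.16, edgeR adjusted p = 0.023). Here the higher SAHA value came from WT LPS+SAHA 2 in both genes, and it stayed below both WT LPS libraries. Ect2, which switches on RhoA at the division plane, and Kif20a, a midzone motor, had −1.14 and −1.14, and Racgap1, the partner of Kif23, and Anln had −0.80 and −0.79. Kif20a shares 33.2% of its exon bases with Cdc23 on the opposite strand, Ube2c 22.8%, Kif4 15.1%, Ncapg 13.4%, Ccna2 12.5% and Prc1 11.1% with other genes. The strand setting of the counting is unknown, so these counts are uncertain.

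The SAHA difference had similar medians in genes with and without a match to the CHR letters searched. The 25 genes with a CHR match near the start had a median log2 fold change of −1.06, and the 10 genes whose windows held none there had −1.01. Windows without a match may hold other forms of the CHR, which were not searched. Ccnb1, with no CHR match in its window, had a log2 fold change of −1.32, and Ccnb2, with a CHR match, had −0.996. Cdc25b, with the smallest difference, holds a CHR match just after its start.

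The other genes of mitosis, 137 from 8 further lists, also lay lower with SAHA but by less. Of these, 53 were lower and none was higher, and their median log2 fold change was −0.59, with 128 below 0. Midzone and cytokinesis genes were lower in 6 of 8, entry regulators in 7 of 13, centromere and kinetochore genes in 13 of 28, and spindle and centrosome genes in 13 of 32. Of the 12 tested genes of the DREAM and MuvB complexes, which hold mitotic genes silent or activate them, Mybl2 alone was lower (log2 fold change −1.07); it is named after its value was seen, as are the genes of the next sentence. The 3 lower among 7 further checkpoint genes were Bub3, Zwilch and Spdl1, the 5 of 19 APC/C and separase genes were Anapc15, Cdc27, Ube2s, Fbxo5 and Espl1, and the 5 of 18 cohesin and condensin genes were Esco2, Cdca5, Sgol1, Sgol2a and Ncapg2. Among those with the largest differences were Sgol1, the protector of centromeric cohesin, and Cdkn3, a phosphatase that acts on CDKs. Sgol1 averaged 18.0 ± 3.43 CPM with SAHA and 44.8 ± 6.60 CPM in WT LPS (SD, n = 2 each; log2 fold change −1.31, edgeR adjusted p = 0.0226). Of 33 DNA replication genes, which act in the phase before, 16 were lower and none higher (median −0.68).

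**Figure D3:**
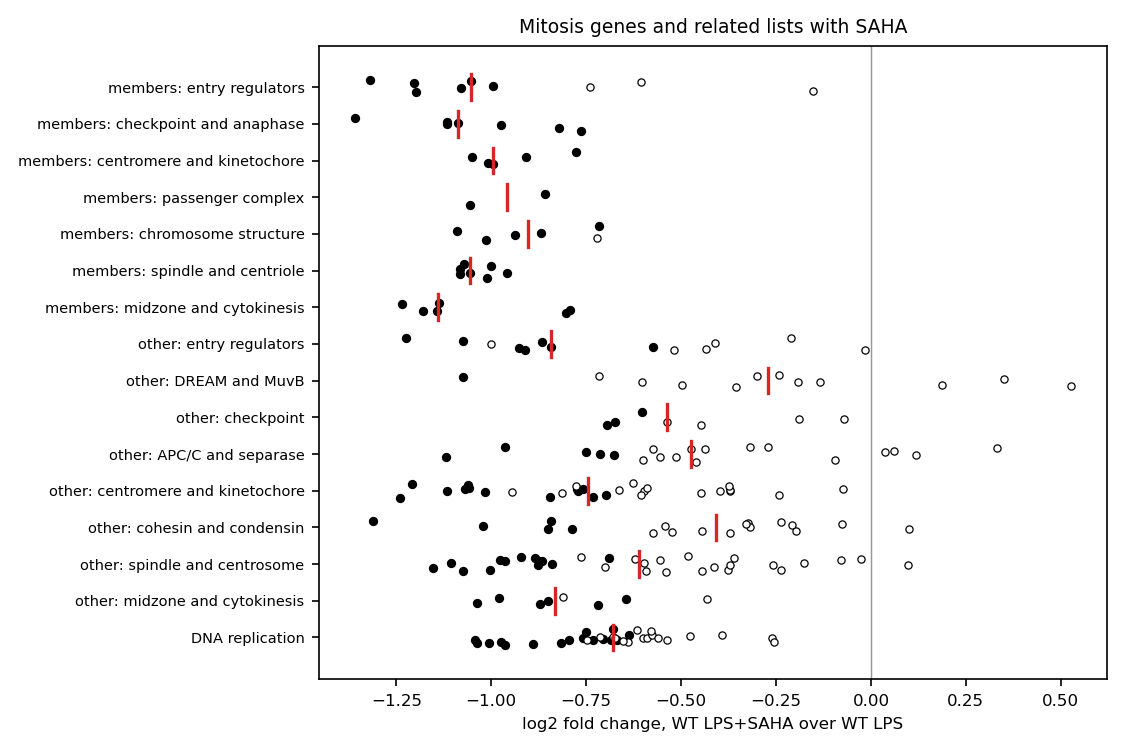
Log2 fold change of WT LPS+SAHA against WT LPS for the 42 genes by role, for the 137 other mitosis genes by list and for 33 DNA replication genes; each point is 1 gene, filled where the edgeR adjusted p was under 0.05, and the red bar is the median of each line. The 42 genes centre at −1.01, the other mitosis genes at −0.59 and the replication genes at −0.68.

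Sums of markers of other cell states also differed between these groups, while few single markers were called. Of the markers tested, 1 of 6 for macrophages and monocytes and 2 of 9 for mature B cells were higher with SAHA, and none of either list was lower. Among 10 T cell and 4 early B cell markers tested, none was called. The 8 macrophage and monocyte markers summed to 45.9 and 56.4 CPM in the WT LPS+SAHA libraries, with 2 and 0 of them at 0, against 26.7 and 30.1 CPM in WT LPS, with 1 at 0 in each. The 12 T cell markers summed to 19.7 and 23.8 CPM with SAHA, with 1 and 0 at 0, against 16.4 and 17.1 CPM in WT LPS, with 0 at 0, and the 9 mature B cell markers to 3312 and 4077 CPM, against 2632 and 2801 CPM. The 5 plasma cell markers summed to 324 and 401 CPM, against 481 and 509.8 CPM in WT LPS, and 2 of them, Prdm1 and Xbp1, were lower. The 9 early B cell markers summed to 216 and 234 CPM with SAHA, with 5 and 2 at 0, against 146 and 146 CPM in WT LPS, with 3 at 0 in each. The 12 erythroid markers summed to 243 and 254 CPM, with 4 and 1 at 0, against 482 and 419 CPM, with 3 and 2 at 0. This sum went against most of its single markers. Of the 7 erythroid markers tested, 5 had a log2 fold change above 0 and 2 below (median 0.28), and 1 was called, lower with SAHA. The part of these markers in the lower mitosis genes was not tested.

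The second comparison sets KOKI cultures with LPS against WT cultures with LPS. Here 4 of the 42 genes were higher and none lower, against 2.25% of the 15342 genes tested that were higher and 1.83% lower (4.08% in either direction). The median log2 fold change was 0.33, 40 of the 42 values were above 0, and 25 had an unadjusted p under 0.05, against 17.5% of all genes tested. In 34 genes both KOKI libraries lay above both WT LPS libraries, in 2 (Trip13 and Kif23) both lay below, and in 6 the groups overlapped, while 23% of all genes lay above and 24.1% below. The 4 calls depended on every library of the pair: they did not hold when any single KOKI LPS or WT LPS library was left out. Each such fit leaves 1 library in a group, and genes outside the 42 were still called in it. The median of the 42 stayed between 0.30 and 0.40, and it was 0.35 without KOKI LPS 2, the library that stood apart by Xist. Without WT LPS+SAHA 2, which enters only through the shared spread, the 4 calls did not all hold, and the median was 0.33.

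The 4 called genes came from different steps of mitosis. Mki67 (chromosome 7, 135689788 to 135716379, minus strand) had 1160.0 and 1091 CPM in the KOKI LPS libraries, against 644 and 648 CPM in WT LPS (log2 fold change 0.80, SE 0.18, edgeR adjusted p = 0.0462). Hmmr, which organises spindle poles, had 146 and 158 CPM, against 98.6 and 94.0 CPM (log2 fold change 0.66, SE 0.14, edgeR adjusted p = 0.0376). Both were higher in each KOKI library than in either WT LPS library. Bub1 had 127 and 132 CPM in KOKI LPS, against 91.3 and 85.4 CPM in WT LPS (log2 fold change 0.55, SE 0.12, edgeR adjusted p = 0.0453). Ccnb2 (chromosome 9, 70407689 to 70421554, minus strand) had 80.7 and 81.6 CPM, against 55.2 and 58.0 CPM (log2 fold change 0.52, SE 0.12, edgeR adjusted p = 0.0494).

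The cyclin B genes moved unequally. Ccnb1 had 235 and 217 CPM in KOKI LPS, against 233 and 219 CPM in WT LPS, with overlapping groups and a log2 fold change of 0.00 (0.14 SE). The ratio of Ccnb2 to Ccnb1, in RPKM, was 0.940 and 1.03 in KOKI LPS, against 0.649 and 0.725 in WT LPS, and 0.822 and 0.896 in WT LPS+SAHA. WT LPS was thus the lowest of the 3 splenic groups in this ratio, without overlap, although both genes were lowest with SAHA. The largest value of the 42 was that of Cdc25b, with 33.8 and 50.9 CPM in KOKI LPS, against 18.1 and 27.1 CPM in WT LPS. Its 2 KOKI libraries differed widely and it did not pass the threshold (log2 fold change 0.90, SE 0.24, edgeR adjusted p = 0.0934). The lowest was Trip13, with 48.7 and 45.0 CPM in KOKI LPS, against 58.0 and 54.2 CPM in WT LPS (log2 fold change −0.26, SE 0.12, edgeR adjusted p = 0.327).

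Few other mitosis genes were called between KOKI LPS and WT LPS. Of 137, only Pttg1 was called, against 4.08% of all genes tested, and none was called lower. The median log2 fold change was 0.16, and 101 of the 137 values were above 0. An unadjusted p under 0.05 (edgeR) was found for 30 of them, against 17.5% of all genes tested. Pttg1 encodes securin, which holds separase inactive until the APC/C destroys it, and averaged 58.0 ± 2.30 CPM in KOKI LPS and 17.7 ± 3.12 CPM in WT LPS (SD, n = 2 each; log2 fold change 1.71, SE 0.18, edgeR adjusted p = 0.00178). That is larger than any of the 42. Of 33 DNA replication genes 2 were higher, Cdc6, which loads the replicative helicase, and Ccne1, the gene of cyclin E1 (log2 fold changes 0.57 and 0.64, named after their values were seen). The sum of the 5 plasma cell markers was 1149.8 and 1030.0 CPM in KOKI LPS, against 481 and 509.8 CPM in WT LPS, and 4 of them were higher. The 8 macrophage and monocyte markers summed to 14.7 and 15.0 CPM, with 2 at 0 in each, against 26.7 and 30.1 CPM in WT LPS. The T cell sum was 10.7 and 9.03 CPM in KOKI LPS, with 3 of 12 markers at 0 in each, against 16.4 and 17.1 CPM in WT LPS. The erythroid sum was 587 and 653 CPM in KOKI LPS, with 3 and 4 of 12 at 0, against 482 and 419 CPM in WT LPS. Of the 7 erythroid markers tested, however, 2 had a log2 fold change above 0 and 5 below (median −0.14), and none was called. The part of these markers in the mitosis values was not tested.

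Set against WT LPS+SAHA, the KOKI LPS cultures had all 42 genes higher, against 14.1% of the 15342 genes tested, with 9.64% lower and 23.7% in either direction. This comparison and the first one share the SAHA libraries, and this one and the second share the KOKI libraries. The log2 fold changes ran from 0.79 for Foxm1 to 1.75 for Cdc20, with a median of 1.32, and in all 42 genes both KOKI libraries lay above both SAHA libraries. Over all genes 32.7% lay above and 33.1% below. The adjusted p-values ran from 0.000282 to 0.0291 (edgeR). Cdc20 had 106 and 112 CPM in KOKI LPS, against 29.4 and 35.4 CPM in WT LPS+SAHA. Cdc25b, which was not separated by SAHA within WT, had 33.8 and 50.9 CPM in KOKI LPS, against 19.8 and 21.0 CPM in WT LPS+SAHA (log2 fold change 1.05, SE 0.24, edgeR adjusted p = 0.0193). Leaving out any single library of these groups leaves 1 library in a group, so only the size is given. The median of the 42 then stayed between 1.284 and 1.402. The KOKI cultures, whose treatment label names SAHA, were thus called different from the WT cultures with SAHA in all 42 genes, and from those with LPS alone in 4. Of the 137 other mitosis genes 91 were higher and 1, Tfdp2, was lower (log2 fold change −0.47, named after its value was seen), and 31 of 33 DNA replication genes were higher.

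**Figure D4:**
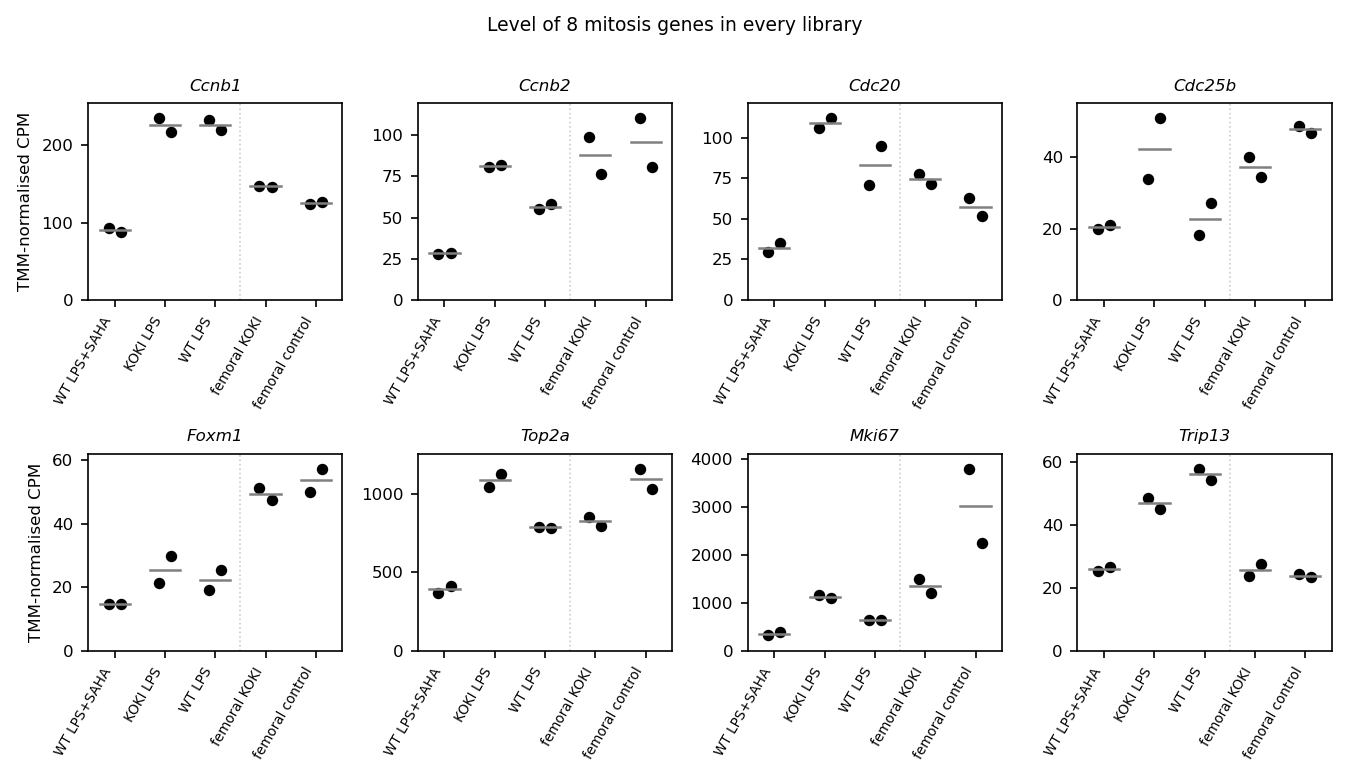
Level of 8 mitosis genes in every library (vertical axis, TMM-scaled CPM from 0), with groups from left to right WT LPS+SAHA, KOKI LPS, WT LPS, femoral KOKI and femoral control; each point is 1 library, the bar is the mean of 2, and splenic and femoral values were scaled in separate fits. For Ccnb1 the SAHA libraries sit at 93.2 and 87.7 and the WT LPS libraries at 233 and 219, and for Mki67 the femoral control pools at 3806 and 2256 are the highest of all.

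In the femoral preparations, KOKI pools were set against control pools. None of the 42 genes was called by edgeR, in a comparison where 0.0301% of the 16624 genes tested were higher (5 genes) and 0% lower; 10 of the 42 and 2687 of all genes (16.2%) had an unadjusted p under 0.05. DESeq2 called 4 of the 42, all lower, and 4.14% of all genes. The 42 log2 fold changes had a median of −0.32, and 34 were below 0. The lowest adjusted p was 0.131, for Cenpf (edgeR). In 21 genes both KOKI pools lay below both control pools, in 3 (Ccnb1, Cdk1 and Cdc20) both lay above, and in 18 the groups overlapped. Over all genes 24.2% lay below and 25.3% above. The control pools differed from each other, and the result turned on them: without femoral control 2, 19 of the 42 were lower, where 19.9% of all genes were called. Without femoral control 1, 5 were lower and 1 was higher, where 12.2% of all genes were called, a share near that of the 42.

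Mki67 showed that spread most clearly, with 1491 and 1196 CPM in the KOKI pools, against 3806 and 2256 CPM in the control pools (log2 fold change −1.17, SE 0.36, edgeR adjusted p = 0.19). Cenpf had 159 and 129.7 CPM in the KOKI pools, against 387 and 252 CPM in the control pools, a difference of −1.15 on the log2 scale. In both genes the KOKI pools lay closer together than the control pools. Cdc20 had the highest value, with 77.7 and 71.8 CPM in the KOKI pools, against 63.0 and 51.8 CPM in the control pools (log2 fold change 0.38, SE 0.18, edgeR adjusted p = 0.344). Ccnb1 had 148 and 145 CPM, against 123 and 126 CPM (log2 fold change 0.23, SE 0.18, edgeR adjusted p = 0.564). KOKI pools and control pools differ in gamma c in 1 of the KOKI pools. Against the control pools the matched KOKI pool alone, in the fit of all 10 libraries, had a median log2 fold change of −0.26. That pool is 1 library, so only the size is given. The 12 neutrophil markers summed to 13856 and 21177 CPM in the KOKI pools, against 19294 and 14092 CPM in the control pools, and the 12 erythroid markers to 10298 and 13444 CPM, against 12244 and 12198 CPM, with overlapping groups in both lists and no marker at 0. The part of cell composition in these values was not tested.

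Within the 42 genes the femoral differences ran with exon length. The 14 genes with the shortest exons in sum (1541 to 3796 bases) had a median log2 fold change of −0.02, the middle 14 (4059 to 5431 bases) had −0.44 and the 14 longest (5478 to 15433 bases) had −0.40. Spearman's rho between log2 fold change and exon length was −0.51 over the 42 genes, which share their libraries, and −0.19 over all 16624 genes tested. It was −0.44 and −0.64 for the KOKI pool without RAG2 and gamma c set against control 1 and control 2, −0.36 and −0.58 for the KOKI pool without RAG2, and 0.02 between the control pools. The relation had the same sign in all 4 pairings of a KOKI pool with a control pool; whether the size of the transcripts had a part in the values was not tested.

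**Figure D5:**
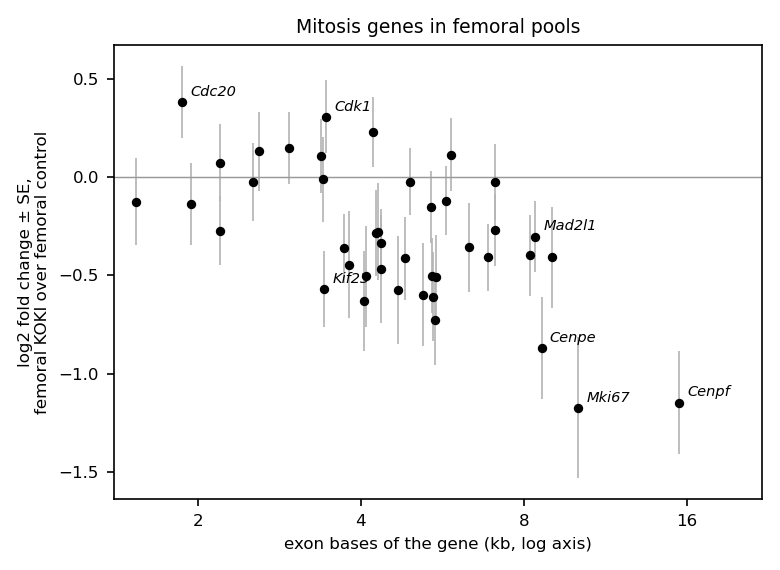
Log2 fold change of femoral KOKI over femoral control pools with its standard error (vertical axis) against summed exon length in kilobases on a log axis (horizontal axis), 1 point per gene. Mki67 and Cenpf, among the longest, lie lowest at −1.17 and −1.15, and the 14 shortest genes centre at −0.02.

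The femoral control pools were also set beside the WT LPS cultures, with all 10 libraries scaled together. Tissue, culture and genotype differ at once here and cannot be told apart. Of the 42 genes 12 were higher and 4 lower in the femoral control pools, against 21.3% and 21.1% of the 20204 genes tested (42.4% in either direction), so the number called was near the background. The median log2 fold change was 0.30, against 0.02 over all genes, and it was 0.46 under the RLE scaling. The members did not move as a block. Mki67 had 3406 and 2088 CPM in the femoral control pools, against 704 and 690.0 CPM in WT LPS (log2 fold change 1.98, SE 0.29, edgeR adjusted p = 0.000178), and Anln, the gene of anillin, a scaffold of the contractile ring, had 132 and 135 CPM, against 34.6 and 33.3 CPM (log2 fold change 1.98, SE 0.16, edgeR adjusted p = 1.30e-06). Both were higher in each femoral pool than in either culture. The other higher genes were Cenpf, Cenpe, Foxm1, Cdc25b, Nusap1, Kif23, Racgap1, Prc1, Ccnb2 and Kif4, with log2 fold changes between 0.50 and 1.57. Here too the values ran with exon length, with a Spearman's rho of 0.47 over the 42 genes and 0.13 over all 20204, and the part of length was not tested.

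Of the 4 lower genes, Trip13 (chromosome 13, 73911347 to 73937767, minus strand) had 21.8 and 21.6 CPM in the femoral control pools, against 63.3 and 57.7 CPM in WT LPS (log2 fold change −1.48, SE 0.16, edgeR adjusted p = 2.05e-05). Ccnb1 had 111 and 117 CPM, against 254 and 233 CPM (log2 fold change −1.10, SE 0.17, edgeR adjusted p = 0.000358). Cdc20 and Cdk1 had log2 fold changes of −0.78 and −0.75; Cdc20 was not called without WT LPS 2. In level per length Ccnb1 ranked 5 of 42 in WT LPS and 17 in the femoral control pools, and Trip13 ranked 23 in WT LPS and 42 in the femoral control pools. The cyclin B pair thus lay the other way round: the ratio of Ccnb2 to Ccnb1, in RPKM, was 2.45 and 1.75 in the femoral control pools, against 0.649 and 0.725 in WT LPS. Of the 33 DNA replication genes, 1 was higher and 12 were lower (median −0.32).

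Whether the KOKI difference itself differed between spleen and femur was tested as an interaction over all 10 libraries. Mki67 alone of the 42 passed the threshold, in a comparison where 0.416% of 20204 genes were higher and 0.431% lower (0.846% in either direction): the splenic KOKI difference exceeded the femoral one by 1.96 on the log2 scale (SE 0.40, edgeR adjusted p = 0.0477). It was no longer called without either femoral KOKI pool, either KOKI LPS library, either WT LPS library or femoral control 1, and 9 of the 42 were called without femoral control 2, where 3.13% of all genes were. Of the others, Cenpf had 1.45 (edgeR adjusted p = 0.0536) and Hmmr had 1.25 (edgeR adjusted p = 0.0631). In all, 22 of the 42 had an unadjusted p under 0.05, against 13.1% of all genes.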

How the data were processed

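Extraction used the miRNeasy kit and library preparation the TruSeq Stranded Total RNA kit, per the labels' protocols. The authors deposited 1 table of unnormalised counts per gene, with exon length in bases. The submitters' processing notes name STAR 2.4.0a, featureCounts (Subread 1.4.6-p1) and mm10 (GRCm38). The sources used here give neither a strand setting nor the handling of reads that match several places. The 100 spike-in and phiX entries (1 to 17 counts per library) were left out.

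Counts were tested with edgeR 4.0.16 in R 4.3.3: TMM, filterByExpr (minimum count 10, total 15), the quasi-likelihood F test and Benjamini-Hochberg adjustment over all genes tested, with a threshold of 0.05. The 3 splenic comparisons came from 1 fit of 6 libraries, the femoral one from 4 libraries, and the tissue and interaction tests from all 10, where each femoral KOKI background has 1 library that is taken to vary as the other groups do. The fits were also run on simulated counts that had the same fixed spread for every gene. That run therefore does not show how the tests behave on the spread of these data. CPM and RPKM were computed here with TMM library sizes, and marker sums and shares with plain totals. Alternatives were RLE scaling, DESeq2 1.42.0, no filter, other sets of libraries, the WT number as a block and leaving out each library.

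Values were given, by rule, for the 2 largest SAHA differences of each role, the members not called with SAHA, those called in KOKI against WT LPS, the highest and lowest RPKM, the related pairs, and up to 3 called other mitosis genes per direction. Other genes, among them Trip13, Anln, the replication genes and the femoral and tissue examples, were chosen after their values were seen. Of the genes this rule names, 1 is not reported here. The members and lists were chosen with earlier results of these data known.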

Additional observations from a re-analysis of the deposited data

Results flagged for a closer look

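The difference between the splenic and the femoral KOKI comparison passed the threshold for Mki67 alone, at 1.96 on the log2 scale (edgeR adjusted p = 0.0477). In the cultures Mki67 was higher in KOKI LPS than in WT LPS (0.80), and in the femoral preparations it was −1.17 in KOKI against control pools, a value that did not pass its own test (edgeR adjusted p = 0.19). The spread of the control pools, at 3806 and 2256 CPM, is large beside that of the KOKI pools, at 1491 and 1196 CPM.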

How the results depend on the processing

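The median log2 fold change of the 42 genes kept its sign in each comparison under the alternatives run. The count of genes lower with SAHA, 38, was between 29 and 41 under RLE, DESeq2, no filter, all 10 libraries and without KOKI LPS 1 or 2, was 0 in the 4 WT libraries alone, and ran from 0 to 32 when 1 library was left out. With the WT number as a replicate block, 41 were lower, beside 3413 genes of all (22.8%). The numbers are not stated to pair the samples: same-numbered deviations correlated at 0.365 over 15342 genes, with 2 pairs only. The KOKI count of 4 (626 of all) was 8 by DESeq2 (1097), 1 in the 4 compared libraries alone (571) and 0 with all 10 libraries (421). With 1 library left out, which leaves 1 library in a group, the 4 calls did not all hold, and the median stayed between 0.30 and 0.40. Leaving out WT LPS+SAHA 2 was an alternative chosen after seeing the data, as was leaving out KOKI LPS 1 or 2 for SAHA. The femoral count of 0 (5 genes of all) was 4 by DESeq2 (688 of all), 2 with no filter (662) and 0 to 19 with 1 pool left out (3456 of all at the highest). The interaction count of 1 (171 of all) was 11 by DESeq2 (543), 6 with no filter (950) and 0 to 9 with 1 library left out (620 of all at the highest). The KOKI against SAHA count of 42 (23.7% of all genes called) was 42 under RLE (23.2%), DESeq2 (27.3%), no filter (12.2%) and all 10 libraries (12.1%). The femoral control against WT LPS count of 16 (42.4%) was 21 under RLE (41.6%) and DESeq2 (40.6%) and 17 with no filter (24.2%). With 1 library left out, which leaves 1 library in a group, the medians stayed between 1.284 and 1.402 and between 0.137 and 0.466. Values near 0 changed sign. With SAHA, Cdc25b ran from −0.41 to 0.14 with 1 library left out, the positive value without WT LPS 2. In KOKI against WT LPS, Ccnb1 had −0.037 with no filter, −0.023 with all 10 libraries, −0.0019 without WT LPS+SAHA 2 and between −0.059 and 0.057 with 1 other library left out, and Cdc25c between −0.040 and 0.26. The cause of these moves was not tested. Groups of at most 2 libraries limit the precision of each test.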
